A study of Mus musculus with 8 samples.

Results

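The activity of replication initiation sites (ISs) was compared between RIF1-null CH12 cells with and without MCM6 depletion, on the autosomes. CH12 is a mouse B cell lymphoma line, grown here, per the labels, under stimulation with IL4, CD40 and TGF beta. The control group, Rif1KO_shLacZ, was the Rif1-knockout line infected with a lentivirus expressing a short hairpin RNA against LacZ, a bacterial gene that the cells do not have. The other group, Rif1KO_shMcm6, was the same knockout line with a hairpin against Mcm6. Both groups therefore lacked RIF1 and both carried a hairpin, and the sources do not say how many knockout clones were used. The ISs were all those listed in the merged table of the 2 groups that lie on an autosome, which gave 127312 of 129937 ISs. Each group had 2 libraries, but the deposited table holds 1 pooled value per group. Every difference below is therefore a difference between 2 pooled values with no replicate check, and the condition and the library cannot be told apart. A higher value in shMcm6 is equally a lower value in shLacZ. Neither the knockdown nor the cell type can be checked in these files, which hold DNA of nascent strands.

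Replication is licensed in G1, when the origin recognition complex, CDC6 and CDT1 load the MCM2-7 complex onto DNA as an inactive double hexamer, and MCM6 is a subunit of that ring. In S phase the kinases CDK and DDK turn a part of the loaded complexes into active helicases, while the rest stay dormant and serve as a reserve. RIF1 recruits protein phosphatase 1 to chromatin and is known as a regulator of the time at which origins fire. In short nascent strand sequencing (SNS-seq), short DNA made at young bubbles is selected by size, and its RNA primer protects it from lambda exonuclease, which digests broken genomic DNA. The read density at an IS then stands for how often replication started there relative to the other ISs of the same library.

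The sequences at the ISs with the largest differences are shown first, because the ISs highest and lowest in shMcm6 differ in sequence composition. By the rule used for naming ISs, those whose mean log2 read density over the 2 groups was at least the median were ranked by the difference between the groups. The central 240 bases of the ISs ranked 2 and 3 among those most raised in shMcm6 lie in introns, and are given on the plus strand of mm9 with the longest uninterrupted runs of purines (A and G) in capitals, 1 run of 23 bases in Epha3 and 2 runs of 14 bases in Sema3d. The Epha3 stretch is chr16:63833730-63833969 and that of Sema3d is chr5:12481178-12481417.
Epha3 intron: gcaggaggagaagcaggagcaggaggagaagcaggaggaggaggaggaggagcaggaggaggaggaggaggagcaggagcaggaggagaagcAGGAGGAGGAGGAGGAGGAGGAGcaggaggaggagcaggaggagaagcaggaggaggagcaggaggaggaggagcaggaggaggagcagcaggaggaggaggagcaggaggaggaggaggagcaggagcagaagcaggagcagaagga
Sema3d intron: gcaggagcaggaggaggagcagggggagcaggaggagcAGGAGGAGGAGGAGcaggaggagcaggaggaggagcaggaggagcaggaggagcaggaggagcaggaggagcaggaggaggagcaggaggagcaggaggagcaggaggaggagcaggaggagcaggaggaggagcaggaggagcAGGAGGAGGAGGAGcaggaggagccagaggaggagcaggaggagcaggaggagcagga
Both stretches were arrays made up mainly of AGG and AGC triplets on the same strand, with other bases between them, such as AGAAGC in Epha3. Purines made up 91.7% of the Epha3 stretch and 89.6% of the Sema3d stretch. The triplet AGG occurred 54 times in each, AGC 19 times in Epha3 and 23 times in Sema3d, and the dinucleotide CG 0 times in each.

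For contrast, the central stretches of 3 of the most lowered ISs are given with each CG dinucleotide in capitals. They are the 3 lowest ISs whose printed stretch holds no annotated untranslated region. The first covers the divergent promoter of Cpsf7 and Sdhaf2 at chr19:10600018-10600257, the second the promoter of AI118078 at chr9:55174854-55175093, and the third is intergenic, 36.5 kb from the transcription start site (TSS) of Laptm5, at chr4:130431953-130432192.
Cpsf7 and Sdhaf2 promoter: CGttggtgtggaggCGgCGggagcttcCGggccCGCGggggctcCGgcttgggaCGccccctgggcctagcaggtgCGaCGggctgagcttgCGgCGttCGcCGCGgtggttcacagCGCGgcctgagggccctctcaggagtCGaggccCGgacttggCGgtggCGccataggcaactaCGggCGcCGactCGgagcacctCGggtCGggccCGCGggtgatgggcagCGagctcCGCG
AI118078 promoter: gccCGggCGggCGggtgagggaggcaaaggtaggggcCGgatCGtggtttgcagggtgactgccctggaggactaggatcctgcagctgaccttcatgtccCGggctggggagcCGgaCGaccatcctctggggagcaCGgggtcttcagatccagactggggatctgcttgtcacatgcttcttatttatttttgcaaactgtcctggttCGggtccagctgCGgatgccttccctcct
Intergenic, near Laptm5: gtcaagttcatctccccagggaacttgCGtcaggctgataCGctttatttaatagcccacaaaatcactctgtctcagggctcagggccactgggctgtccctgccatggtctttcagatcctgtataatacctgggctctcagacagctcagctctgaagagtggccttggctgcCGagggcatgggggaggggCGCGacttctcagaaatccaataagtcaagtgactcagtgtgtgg
The Cpsf7 and Sdhaf2 stretch held 32 CG dinucleotides at a GC content of 75%, the AI118078 stretch held 11, and the stretch near Laptm5 held 5. Their purine shares were 53.8%, 50% and 49.2% on the strand printed.

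The values behind these ISs were recovered as whole reads. At the highest IS, in an intron of Tbc1d5, which encodes a Rab GTPase-activating protein that binds retromer, there were 84 reads in shLacZ and 484 in shMcm6, or 3.99 and 20.5 RPM (reads scaled to 1000000 reads in ISs). The log2 difference was 2.36 ± 0.17 (counting SE). In Epha3, an ephrin receptor, 80 reads stood against 439, a difference of 2.29 ± 0.18. In Sema3d, a secreted guidance cue, 170 reads stood against 842, a difference of 2.14 ± 0.12. These are the extremes of a ranking, so their sizes are a description, and the counting SE covers neither biological nor library variation.

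Among the 10 highest ISs, 9 had at least 75% purines on one strand of their central 300 bases, and the median was 89.8%. The exception was an intron of Dgkb, a diacylglycerol kinase, at 72.3%, with 77 reads in shLacZ and 297 in shMcm6. None of the 10 held a G-quadruplex motif in the centre, and observed over expected CpG there ranged from 0 to 0.0767. Of these 10 ISs, 7 were in the IS list of shMcm6 alone and 3 in both lists, and 0 of them overlapped an IS of the WT or Rif1KO cells without hairpin. A gene-end IS near Nmi had the highest density among them in shMcm6, with 52.6 RPM against 13.1 RPM in shLacZ.

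The 10 lowest ISs were of another kind. Their central purine share ranged from 50.3% to 60%, 4 lay in promoters, and 6 overlapped an IS of the Rif1KO list. The lowest was the promoter of Rnf111, a SUMO-targeted ubiquitin ligase, with 238 reads in shLacZ and 116 in shMcm6, a log2 difference of -1.2 ± 0.16. The divergent promoter of Cpsf7, a pre-mRNA cleavage factor subunit, and Sdhaf2, an assembly factor of succinate dehydrogenase, went from 243 to 120 reads. The promoter of Sik1, a salt-inducible kinase, had 298 and 164 reads. The differences of the 10 lowest spanned sizes of 0.98 to 1.2, against 1.78 to 2.36 for the 10 highest.

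**Figure D1:**
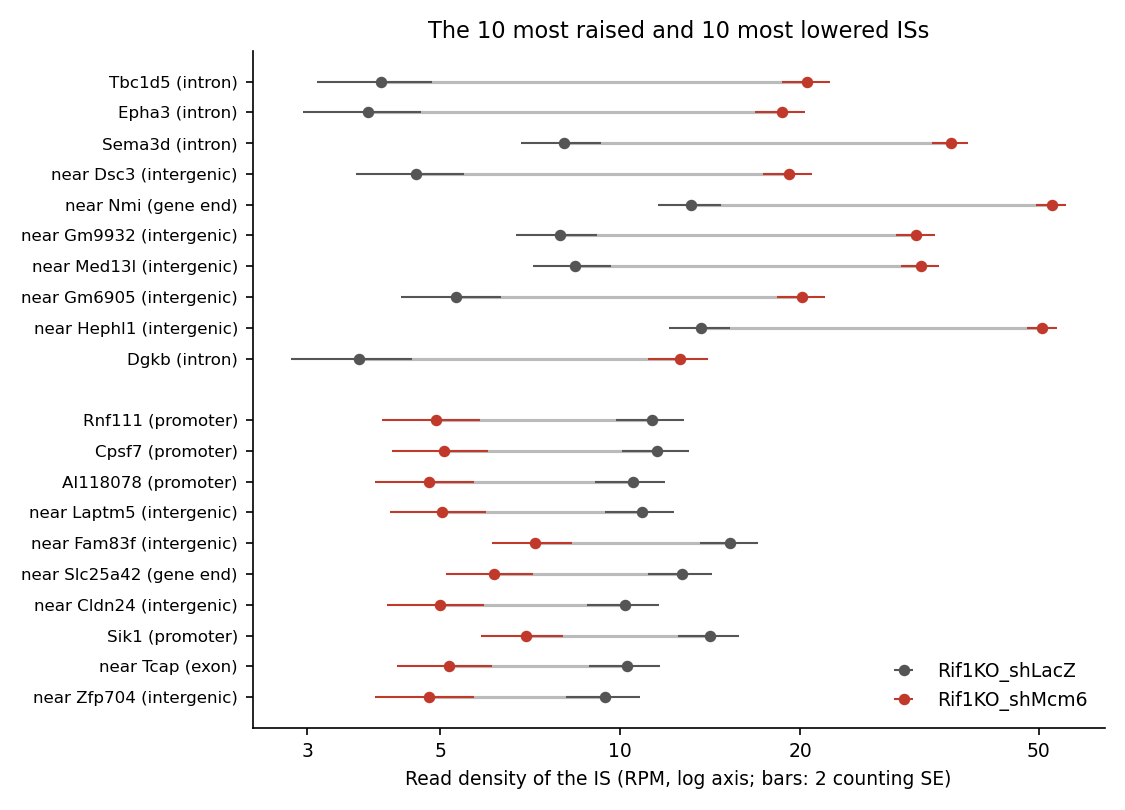
Read density (RPM, log axis) of the 10 ISs most raised and the 10 most lowered in Rif1KO_shMcm6 against Rif1KO_shLacZ; each row is 1 IS named by its host or nearest gene, grey points are shLacZ, red points shMcm6, and bars are 2 counting standard errors of the pooled reads. The raised ISs, led by Tbc1d5 (3.99 to 20.5 RPM), moved farther than the lowered ones, led by Rnf111 (11.3 to 4.91 RPM).

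The depth behind these values is known from the reads in ISs. The ISs held 21071351 reads in shLacZ and 23602750 in shMcm6, with medians of 142 and 161 reads per autosomal IS, and the median counting SE of a log2 difference was 0.17. Past 1.5-fold, 6134 ISs were higher in shMcm6 (4.82% of 127312) and 1903 were lower (1.49%). The median difference over all autosomal ISs was -0.01. Each of the 8037 ISs past 1.5-fold also lay beyond 2 counting SEs, but so did many smaller differences, 30846 ISs in all.

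Most higher ISs, 4956 of 6134, were sites on the shMcm6 list only. Of the 29174 ISs called in shMcm6 alone, 17.0% were higher past 1.5-fold, against 1.31% of the 84210 called in both groups. Of the 13928 called in shLacZ alone, 8.70% were lower, against 0.753% of those called in both. Being on a list depends on the same reads as the density, so these shares describe the lists and are no separate evidence. The higher ISs had a median of 1.83 log2 RPM in shLacZ and 2.64 in shMcm6, and the lower ISs 2.57 and 1.85. Over all ISs the medians were 2.75 and 2.77, so both classes lay below them in each group. The order of the 2 classes within a group is fixed by selecting on the difference.

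Purine asymmetry was the sequence feature that set the higher ISs apart most widely. Purine-rich ISs, with at least 75% A and G on one strand of the central 300 bases, made up 5.04% of all autosomal ISs, 32.9% of the higher ISs (2018 of 6134) and 2.47% of the lower ISs (47 of 1903). Of the 6414 purine-rich ISs, 31.5% were higher past 1.5-fold (95% Wilson interval 30.3 to 32.6) and 0.733% lower, against 3.40% and 1.54% of the 120898 others. Their median log2 difference was 0.38, against -0.02 for the others. The feature was examined after the sequences of the named ISs had been read, and those ISs are among the members counted.

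The share of higher ISs increased with purine content in steps across the whole range. It was 2.17% under 55% purines, 3.84% from 60% to 65%, 11.4% from 70% to 75%, 27.5% from 80% to 85% and 36.1% from 85% to 90%. In the 1358 ISs with at least 90% purines it was 53.5% (727 ISs), with a median difference of 0.61. In that class 0 ISs were lower, which allows a share of up to 0.221% (3 counts of the total, as for each count of 0 here). Within this most asymmetric class, the share higher differed by the share of G among the purines. With G making up 40% to 50% of the purines, 137 of 194 ISs were higher (70.6%), and from 60% G on, 173 of 411 (42.1%). The classes under 40% and from 50% to 60% G are not given here, so no trend is drawn.

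The same order held among ISs called in both groups, where the share of higher ISs was 15.9% in purine-rich ISs and 0.675% in the others, and 36.5% from 90% purines on. It also held in each quartile of density. In the lowest quartile of mean density 45.9% of purine-rich and 8.31% of other ISs were higher, and in the highest quartile 20.7% and 0.747%. Summed over all purine-rich ISs, the share of reads was 4.82% in shLacZ and 6.09% in shMcm6, a log2 ratio of 0.34.

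The table that compares Rif1KO with WT cells, without hairpins, did not show this pattern. Over its 38954 autosomal ISs, 2.27% were higher and 2.69% lower in Rif1KO past 1.5-fold. Of its 1970 purine-rich ISs, 0.964% were higher (Wilson interval 0.618 to 1.5) and 2.23% lower (1.67 to 2.98), with a median difference of -0.04. These intervals run over ISs and are no test between the 2 comparisons, each of which sets 1 pooled value against 1 other. The 2 tables have different sets of ISs and different shares higher over all ISs (2.27% and 4.82%), which was not adjusted for.

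The lists of the 4 groups add a caution on direction. Purine-rich ISs were 6.27% of the WT list, 5.10% of the Rif1KO list, 3.49% of the shLacZ list and 5.38% of the shMcm6 list. By this measure the shLacZ list was the lowest of all, below the Rif1KO cells without hairpin. At 90% purines and above, the shares were 0.711%, 0.592%, 0.499% and 1.16% in the same order, so the shMcm6 list was the highest there. The lists differ in length, from 25725 ISs in WT to 113626 in shMcm6, and how far the lower share of shLacZ enters the difference was not tested.

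The higher purine-rich ISs were mainly not those called in the cells without hairpin. Of the 1364 purine-rich ISs that overlapped the Rif1KO list, 9.82% were higher in shMcm6, against 37.3% of the 5050 that did not. For the WT list the shares were 8.91% and 36.5%. ISs without purine enrichment showed the same order at a lower level, with 0.397% and 4.26% for the Rif1KO list. The share higher also fell with density, as given above, and density was not held fixed in these shares.

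**Figure D2:**
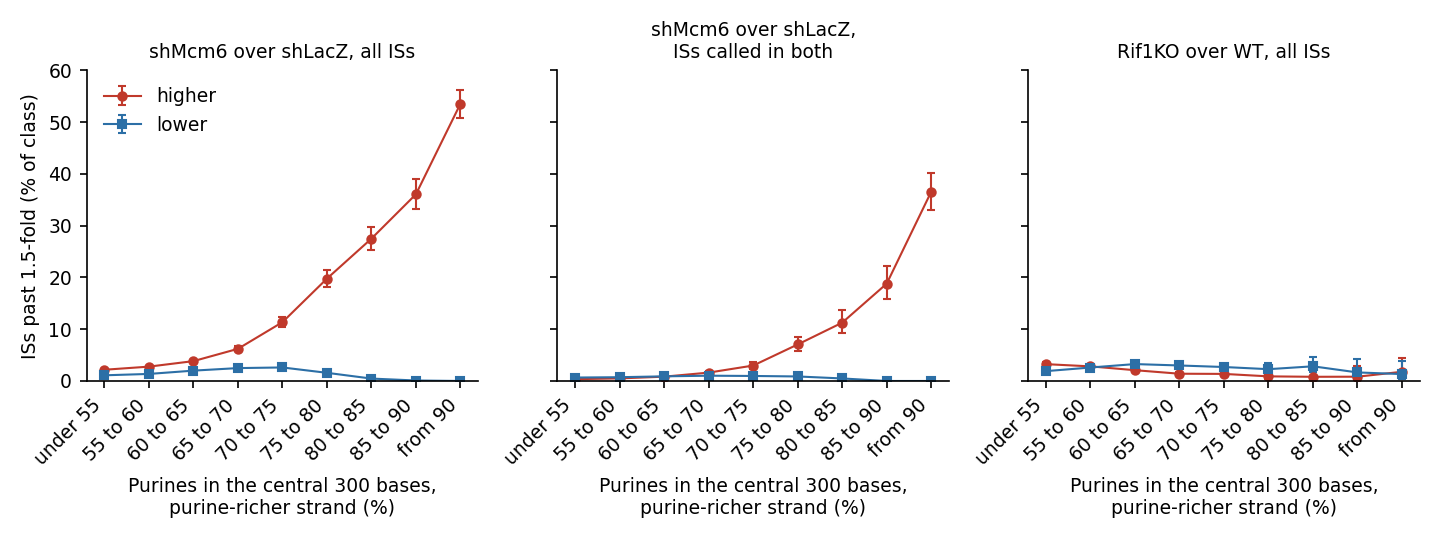
Share of ISs past 1.5-fold (%, red circles higher, blue squares lower; bars are 95% Wilson intervals) by the purine share of the central 300 bases on the purine-richer strand (%). For shMcm6 over shLacZ the share higher climbed to 53.5% over all ISs and to 36.5% over those called in both groups; for Rif1KO over WT it stayed at or under 3.25%.

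Long uninterrupted purine tracts showed the same tendency over all ISs. Among the named ISs the longest run ranged from 23 to 224 bases in the 10 highest and from 9 to 137 in the 10 lowest, so these ranges overlap. With the longest run in the IS under 15 bases, 2.55% were higher, from 60 to 100 bases 10.6%, and from 100 bases on 22.1% of 8014 ISs. Within purine-rich ISs the share higher also went with run length, although purine share was not held fixed there. Of the 305 with a longest run under 15 bases, 10.8% were higher and 7.54% lower, with a median difference of -0.04, against 38.9% higher and a median of 0.47 in the 3216 with a run of at least 100 bases. Among ISs that were not purine-rich over the centre, a run of at least 100 bases went with 10.8% higher.

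Simple tandem repeats, here at least 4 copies of a unit of up to 6 bases spanning at least 12 bases, overlapped with this feature. The centre held one in 24.1% of all ISs. Among higher ISs it did so in 50.3%, and among lower ISs in 20.4%. Without a repeat, 24.6% of 1880 purine-rich ISs were higher, and 2.73% of the others. With a repeat the shares were 34.3% and 5.85%. The difference by purine content was therefore present with and without repeats.

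The repeat units differed by their bases, with overlap. Among units present in at least 100 ISs, the 14 that combine A and G and no other base had between 13.0% (AGGG) and 38.6% (AAAGG) of their ISs higher. The 24 other units, runs of a single base included, had between 2.72% (runs of A) and 17.8% (ACAGAG). Of the 3 most common units, AG had 17.7% of 4680 ISs higher, AC 9.18% of 4508 and runs of A 2.72% of 5143. The hexamer AGCAGG, which joins an AGC and an AGG triplet, was the repeat unit in 34 ISs, of which 22 were higher (64.7%, Wilson interval 47.9 to 78.5). CCG repeats went the other way, with 0 of 53 higher (a count of 0 allows up to 5.66%) and 12 lower (22.6%).

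The purine feature was seen in every gene context and on both strands of genes. The share higher in purine-rich ISs was 33.7% in intergenic sequence, 28.4% in introns, 22.0% in exons, 40.5% of 42 gene ends and 19.9% in promoters. In introns the purine-rich strand was the coding strand of the host gene in 726 ISs and the template strand in 1184. The shares higher were 29.2% (Wilson interval 26.0 to 32.6) and 28.0% (25.5 to 30.6), which overlap.

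A G-quadruplex motif, 4 runs of at least 3 G with loops of up to 7 bases on either strand, gave a result that depended on where it was sought. With the motif in the central 300 bases 8.63% of ISs were higher, against 3.79% without. With the motif sought in the whole IS the order turned, with 4.05% of 98473 ISs higher against 7.46% of 28839 without. Within purine-rich ISs the central motif went with 30.6% higher and its absence with 33.3%. None of the 10 highest ISs had one in the centre.

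By GC of the whole IS, gained sites were close to the rest, while lost sites were richer in GC. The median GC of the IS was 44.5% over all, 45.6% for higher and 50.3% for lower ISs. By GC of the whole IS the share of higher ISs ranged from 3.81% to 5.88%. The share of lower ISs climbed from 0.191% under 35% GC through 1.59% at 45% to 50% to 17.6% from 65% GC on. Without purine-rich ISs the share higher stayed between 2.85% and 4.54%. By GC of the central 300 bases the share higher went from 3.61% at 35% to 40% GC to 10.5% at 60% to 65%, but from 3.14% to 4.40% without purine-rich ISs, so most of that step came with them. From 60% central GC on, 10.04% were higher and 5.23% lower, while by GC of the whole IS 5.83% were higher and 8.14% lower, so the order of the 2 directions turned with where GC was read. Without purine-rich ISs, 4.40% were higher and 4.35% lower at 60% to 65% central GC, and 3.81% and 11.7% from 65% on.

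Among purine-rich ISs the share higher decreased as GC increased, from 45.1% at 35% to 40% GC to 22.1% at 55% to 60%. It was 31.6% of 38 ISs from 65% GC on, with a Wilson interval of 19.1 to 47.5. At every level of GC they stood above other ISs. Under 40% GC, 46.1% of purine-rich ISs were higher against 3.66% of the others, and from 55% GC on 22.4% against 3.72%.

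The GC content of the surrounding 100 kb, which in mammals is low in gene-poor and high in gene-rich domains, related to the whole distribution. The median log2 difference was 0.10 in surroundings under 37% GC and -0.10 from 50% on. It was 0.10 and -0.11 without purine-rich ISs, so this shift did not rest on them. The share lower went from 0.297% to 3.69% between these classes, and the share of purine-rich ISs that were higher went from 55.8% to 16.0%. Read densities are relative within a library, so a shift down in one kind of region and a shift up in another cannot be told apart.

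**Figure D3:**
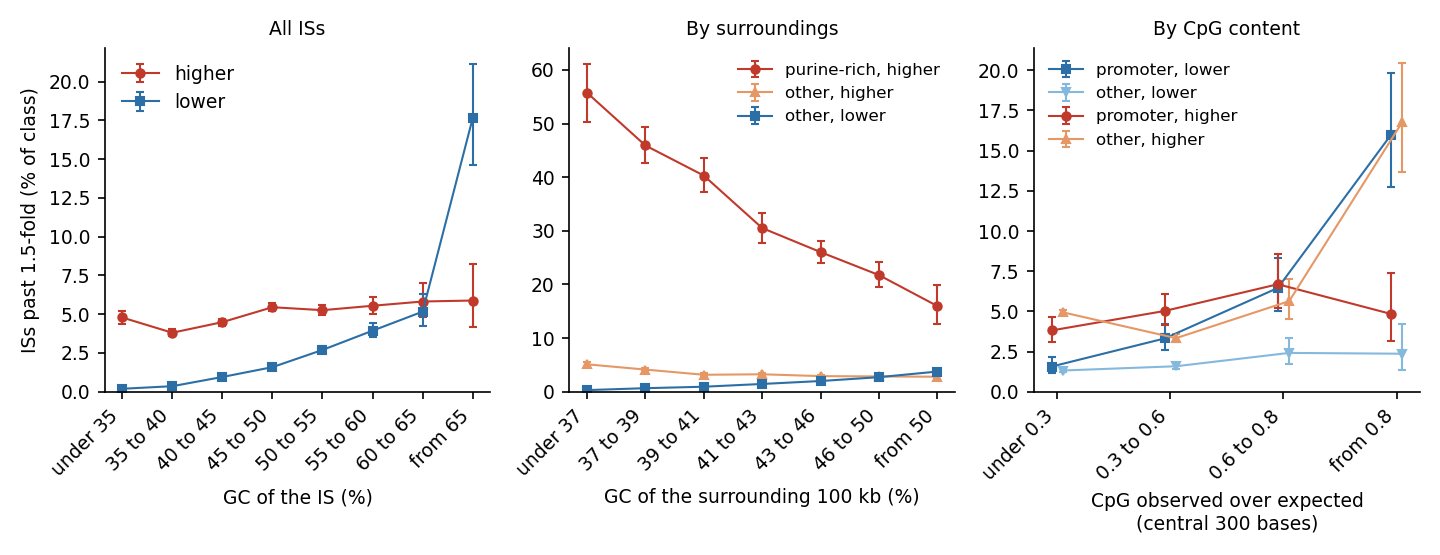
Share of ISs past 1.5-fold (%, bars are 95% Wilson intervals) by GC of the IS, by GC of the surrounding 100 kb, and by observed over expected CpG of the central 300 bases. The share lower reached 17.6% at the GC-richest ISs, the share higher of purine-rich ISs went from 55.8% to 16.0% with the GC of the surroundings, and at the most CpG-rich ISs promoters were more often lower (16.0%) and other ISs more often higher (16.8%).

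Promoters, within 1 kb of a protein-coding TSS, had the greatest share of lower ISs of the 5 contexts. Of 5637 promoter ISs, 3.99% were lower and 4.88% higher, while 1.24% of 78886 intergenic ISs were lower and 5.21% higher. The order at promoters turned without the lowest quartile of density, with 3.35% lower and 2.75% higher, and among ISs called in both groups, with 2.68% and 1.02%. ISs directly over a TSS were lower in 6.19% and higher in 3.45% of 1712. Exonic ISs were lower in 2.29% and higher in 2.63%, intronic ISs in 1.55% and 4.29%. Far from genes, more than 500 kb from any TSS, 0.431% of 11595 ISs were lower and 6.39% higher.

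CpG content separated promoters from the rest. Observed over expected CpG is high in CpG islands, the unmethylated starts of many housekeeping genes, and low in methylated DNA. From a ratio of 0.8 on, 16.0% of 413 promoter ISs were lower and 4.84% higher. Outside promoters at that ratio, 2.37% of 465 ISs were lower and 16.8% higher. By GC content, 21.7% of the 387 promoter ISs with at least 65% GC were lower, against 6.43% of 140 other ISs of that GC.

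Counted by gene, 4655 protein-coding genes had a promoter IS. The median over their promoter ISs was higher past 1.5-fold for 183 genes (3.93%) and lower for 159 (3.42%), with a median difference of -0.04. The excess of higher over lower seen over all ISs was thus smaller at promoters, and as given above its direction there depended on the ISs used.

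Summed over all their ISs, genes differed little. Of 2694 protein-coding genes with at least 5 ISs and 500 reads, 1 was higher past 1.5-fold (0.0371%) and 0 were lower (0%), and the median log2 ratio was -0.03. The gene was Sema3d on chromosome 5, with 911 reads over 7 ISs in shLacZ and 1768 in shMcm6, a log2 ratio of 0.79 ± 0.06 (counting SE). Its most raised IS, printed above, carried most of that, since the ratio without it was 0.16.

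Next came Tnfrsf21, a death receptor of the TNF family, at 0.58 ± 0.09 with 3 of 5 ISs higher and 0 purine-rich. It kept 0.46 without its most changed IS. Epha3 stood at 0.50 ± 0.04 with 4 of 16 ISs higher and at 0.32 without the array printed above, and at 0.20 with ISs called in both groups. Arhgap12, a GTPase-activating protein, was at 0.45 over 5 ISs, but at -0.30 without its most changed IS, so 1 site set its direction. Eltd1, an adhesion G protein-coupled receptor of endothelium, was at 0.39 with 7 of 7 ISs above 0. Cpe, a carboxypeptidase of prohormones, Apoh, a plasma glycoprotein, Gbe1, the glycogen branching enzyme, and Nrg4, a neuregulin, followed at 0.37 to 0.38. Without the most changed IS, Cpe stood at 0.13 and Apoh at 0.15, while Gbe1 and Nrg4 kept 0.32 and 0.29.

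At the other end, 8 of the 10 lowest genes kept a ratio between -0.37 and -0.31 without their most changed IS. The exceptions were Galnt1, which went from -0.39 to -0.24, and Rnf111. Sfta2 was lowest at -0.42 ± 0.07, with 955 and 802 reads, and Sp140, a nuclear body protein of lymphocytes, followed at -0.39 ± 0.05 with 1 of 8 ISs above 0. Spsb1, a SOCS box protein, stood at -0.39 with 0 of 6 ISs above 0, and Galnt1, a transferase that starts O-glycosylation, at -0.39 with 0 of 5. Tmem9, Stox1, Sap30bp, Rph3al and Bpi lay between -0.38 and -0.35. Rnf111 stood at -0.35 and at -0.13 without its promoter IS.

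Long genes tended upwards and short genes downwards. The median log2 ratio was -0.08 in 295 genes under 50 kb, of which 83 were above 0. It was 0.05 in 185 genes of at least 500 kb, of which 133 were above 0 (71.9%). Long genes lie in GC-poor surroundings, and gene length and GC were not separated.

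By 1 Mb windows the differences were small and regional. Of 2378 windows with at least 10 ISs, 0 were past 1.5-fold in either direction (0%), and the log2 ratios of summed reads ran from -0.23 to 0.45 with a median counting SE of 0.02. Of 368 windows with a regional GC under 38%, 337 were above 0, with a median of 0.11. Of 218 windows with at least 48%, 19 were above 0, with a median of -0.09. Spearman's rho between the ratio and the regional GC across the 2378 windows, which share both libraries and are not independent, was -0.62, and with the number of genes nearby -0.59.

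The highest window, chr8:12000001-13000000 with Atp11a, Tubgcp3 and Mcf2l, had a summed ratio of 0.45, from 2166 to 3315 reads over 11 ISs, while the median difference of its ISs was -0.20. It held 2 ISs higher past 1.5-fold and 0 lower, and it stood at 0.22 without the most changed IS. The window of Sema3d, chr5:12000001-13000000, was at 0.37 and at 0.18 without the array. A cluster of olfactory receptor genes at chr2:89000001-90000000 was at 0.31 with 40 ISs and kept 0.29 without its most changed IS. The windows of Lphn2, a latrophilin, on chromosome 3 and of Chrna7, a nicotinic receptor subunit, with Otud7a on chromosome 7 were at 0.30 and 0.28.

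Of the 5 lowest windows, 4 had a median difference per IS as low as their summed ratio. Neighbouring windows at chr4:133000001-134000000, with Arid1a, a subunit of the BAF chromatin remodeller, and Cd52, and at chr4:134000001-135000000, with Runx3, a transcription factor of lymphocytes, stood at -0.23 and -0.22. Their median differences per IS were -0.24 and -0.23. The window with Sp140, Sp100 and Sp110 at chr1:87000001-88000000 stood at -0.21 over 50 ISs, with 4 of them lower past 1.5-fold. A window with Nnt and Paip1 on chromosome 13 was the exception, at -0.23 with a median per IS of -0.11, and at -0.18 without its most changed IS. The last, with Nrp2 and Pard3b on chromosome 1, stood at -0.21 with a median of -0.25. No chromosome stood apart, with medians from -0.04 on chromosome 19 to 0.03 on chromosome 14.

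**Figure D4:**
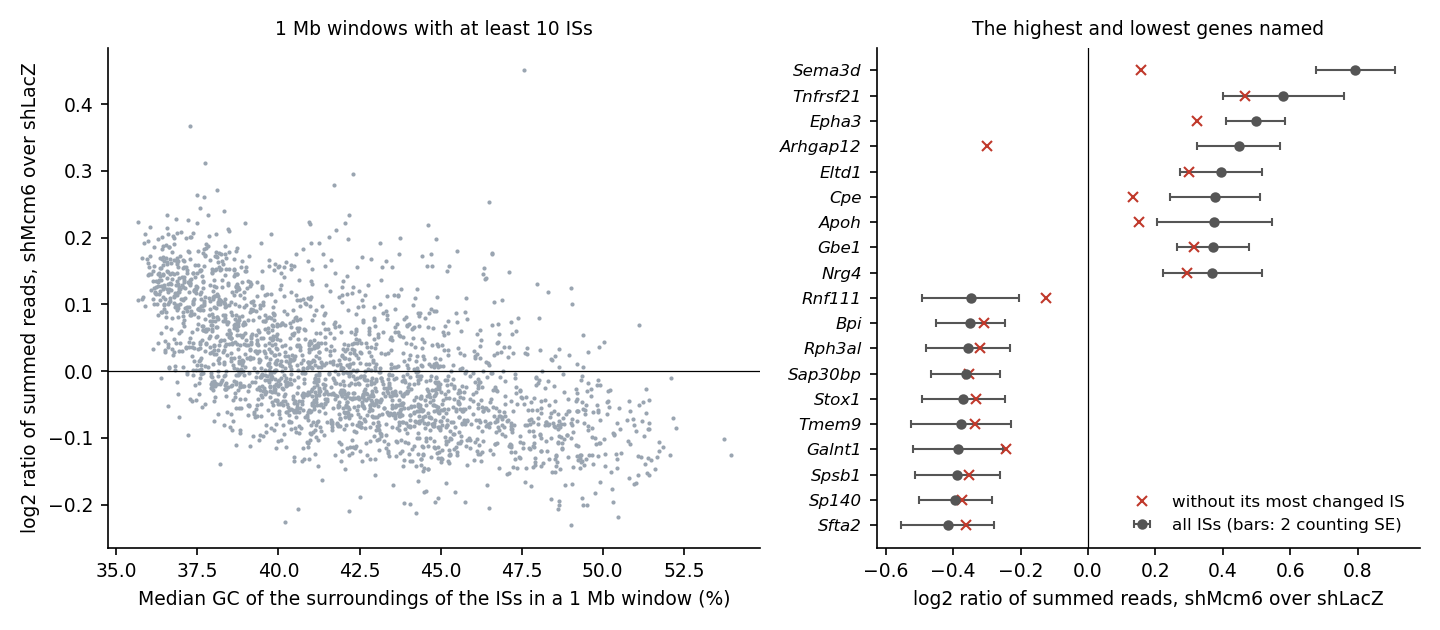
Left, log2 ratio of summed reads (shMcm6 over shLacZ) of 1 Mb windows against the median GC (%) of the surroundings of their ISs, 1 point per window: ratios decreased with GC and the highest was 0.45. Right, the highest and lowest genes named, with all ISs (grey, bars are 2 counting SEs) and without the most changed IS (red crosses): Sema3d went from 0.79 to 0.16 and Arhgap12 from 0.45 to -0.30, while the lowest genes except Rnf111 and Galnt1 moved little.

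Gene lists were described by the ISs whose midpoint lies between the start and the end of a listed gene. Of the 15 genes of origin licensing, which load the MCM ring, 3 held an IS, and 0 of their 7 ISs were past 1.5-fold in either direction, with a median difference of -0.18. At the 4.82% higher and 1.49% lower over all ISs, 7 ISs are too few to show a departure, since a count of 0 of 7 allows a share of up to 42.9%. The lowest of them, Orc4 of the origin recognition complex, had 683 and 647 reads, a ratio of -0.24 ± 0.08, and Orc2 had 292 and 308, a ratio of -0.09 ± 0.12. Mcm6 itself had 0 ISs in the gene or within 5 kb of it. Of the origin firing genes, 6 held 17 ISs, 0 past 1.5-fold (up to 17.6%), with a median of -0.01, from Donson at 0.18 ± 0.21 to Cdc45, part of the active helicase, at -0.17 ± 0.11. Rif1, the gene knocked out in both groups, had 753 and 856 reads over 3 ISs, a ratio of 0.02 ± 0.07. Differences of the size of these counting SEs were not detectable at this depth.

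The shares over all autosomal ISs, 4.82% higher and 1.49% lower, lie inside the Wilson intervals of the next 2 lists. B cell identity genes held 82 ISs in 19 genes, 1 higher (0.216% to 6.59%) and 2 lower (0.671% to 8.46%), with a median of -0.05. Of the 5 with at least 5 ISs, the lowest was Ikzf3 (Aiolos), a zinc finger factor of B cells, at -0.30 ± 0.06 with 1056 and 959 reads, and the highest Prdm1 (Blimp1), which drives plasma cells, at 0.02 ± 0.07. Nuclear genes of oxidative phosphorylation held 54 ISs, 1 higher and 1 lower (0.328% to 9.77% for each), with a median of -0.07. Of the 2 with at least 5 ISs, Cox7b2, a subunit of cytochrome c oxidase, stood at -0.01 ± 0.07 and Atp5o, a subunit of ATP synthase, at -0.14 ± 0.04. Spliceosome genes held 25 ISs, 0 higher (up to 12%) and 2 lower (2.22% to 24.97%, against 1.49% over all ISs), with a median of -0.11. Both of the lower ISs were in the promoter of Lsm7, a ring subunit of the U6 particle, with 227 and 146 reads and a ratio of -0.80 ± 0.15. The highest gene of the list, Prpf38b, a splicing factor, had 184 and 285 reads in its 1 IS, a ratio of 0.47 ± 0.14.

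Axon guidance genes, receptors and cues such as the ephrins, semaphorins and netrins, were listed because Sema3d and Epha3 were already known to lead, so their count is no independent evidence. They held 537 ISs in 52 genes, 24 higher (4.47%, against 4.82% over all ISs) and 6 lower (1.12%), with a median of 0.01. Of the 24 higher, 10 were purine-rich. Of the 31 tested genes 17 were above 0, from Sema3d to Ntn4 at -0.22 ± 0.07.

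Long genes of common fragile sites, where replication is often completed late, were close to all ISs in their share higher and to other long genes in direction. Their 18 genes held 1003 ISs, 60 higher (5.98%) and 8 lower (0.798%), with a median of 0.06, and 13 of 18 genes were above 0, against 71.9% of all genes of at least 500 kb. The median was 0.03 among ISs called in both groups. Lsamp, a neural adhesion protein, was highest at 0.23 ± 0.04, and Pard3b, a polarity protein, lowest at -0.14 ± 0.03. The Wilson interval of the share higher, 4.68% to 7.62%, includes the 4.82% over all ISs. That of the share lower, 0.405% to 1.57%, includes the 1.49% over all ISs.

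ISs were broader in shMcm6. The median width was 530 bp over the 98867 autosomal ISs of the shLacZ list and 589 bp over the 113626 of the shMcm6 list, against 418 bp in WT and 438 bp in Rif1KO cells. The lists covered 55.9 and 71.7 Mb, and ISs over 1 kb made up 3.55% and 7.32%. For 83252 pairs with a single mutual overlap between the lists, the shMcm6 IS was the wider in 70.2%, with a median difference of 55 bp (quartiles -12 and 153).

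Width moved with read density. The median width of 633 paired ISs lower past 1.5-fold was 580 bp in shLacZ and 434 bp in shMcm6, with a median difference of -114 bp. For 1098 paired ISs higher past it, the widths were 424 and 824 bp, with a median difference of 332 bp. The rank correlation of the differences in width and density across the matched ISs was 0.58, and both are read from the same reads. ISs with a density difference from -0.2 to 0 were still wider by 37 bp. Purine-rich ISs widened by 178 bp and others by 51 bp. The peak caller was run without an input, the reads in ISs differed between the groups as given above, and their part in the widths was not tested.

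ISs also lay closer together. The median gap to the next IS was 8098 bp in shLacZ and 7088 bp in shMcm6, while gaps over 100 kb made up 5.33% and 4.03%. The shMcm6 list is also the longer one, and more ISs on the same chromosomes must lie closer, so the gap restates the number called. The part of the peak calling in the number called was not tested. ISs called in shMcm6 alone lay 14180 bp (median) from the nearest shLacZ IS, and 14.1% of them within 2 kb. For those higher past 1.5-fold the median was 8881 bp, with 9656 bp for purine-rich and 8503 bp for others. ISs called in shLacZ alone lay 12106 bp from the nearest shMcm6 IS.

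The added ISs were more frequent where GC is low. For each IS called in shLacZ there were 1.32 in shMcm6 in surroundings under 37% GC and 1.09 in surroundings of at least 50%. Sites called in shMcm6 alone made up 30.6% and 19.1% of all ISs in these classes, and sites called in shLacZ alone 8.19% and 11.5%.

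**Figure D5:**
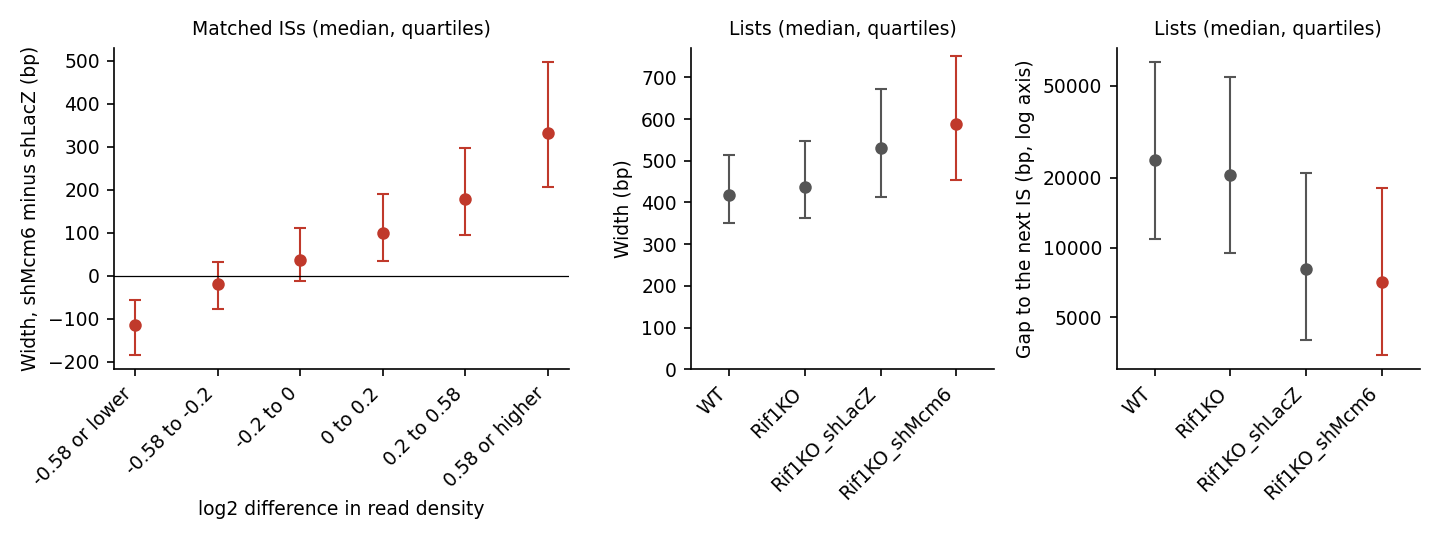
Left, width in shMcm6 minus width in shLacZ (bp) at matched ISs by their log2 difference in read density, from -114 bp to 332 bp. Middle and right, width (bp) of the ISs and gap to the next IS (bp, log axis) in the lists of the 4 groups; points are medians and bars quartiles in all panels, and the shMcm6 list (red) had the broadest ISs (589 bp) and the shortest gaps (7088 bp).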

How the data were processed

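SNS-seq libraries of 8 samples in 4 groups were used, 2 libraries per group: WT, Rif1KO, Rif1KO_shLacZ and Rif1KO_shMcm6, all CH12 cells. Per the study's methods and processing notes, the authors trimmed reads with Trim Galore 0.6.4 and cutadapt 2.6, aligned them to mm9 with Bowtie 1.2.3 keeping unique alignments, ran MACS on each replicate with no input control, and used bedtools for a consensus of the replicates. ClusterScan then grouped peaks, and peaks outside a cluster were dropped. Unique alignment leaves out reads from repeats without unique sequence, and with no input control differences in DNA content stay in the densities.

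The deposited values are log2 RPM, which the authors scaled to the sum over the ISs of each table, with the replicates of a group pooled. Other deposited columns give the number of merged peaks per IS and the authors' category of fold change, and neither was used. All values (100%) were whole multiples of 1 read, with a highest deviation of 7.3e-12 reads, so reads were recovered. They gave the counting SE of a log2 ratio, which covers counting error only. The 95% Wilson intervals of shares were taken over ISs, as if ISs were independent. Neither covers library or biological variation, nor excludes PCR duplicates.

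The difference was shMcm6 minus shLacZ, and called means at least 1.5-fold. With 1 pooled value per group no test was run. GC, CpG, tandem repeats, motifs and purine share were read from the mm9 genome, and genes from its GENCODE annotation. Observed over expected CpG divides the count of CG by that given by the C and G content. Python 3.11.15, numpy 2.4.6, pandas 2.3.3 and matplotlib 3.10.9 were used, and the procedures were tested on simulated data. Named ISs were the 10 highest and 10 lowest differences among those with at least median density, taken as the mean log2 RPM of the 2 groups. Named genes were the 10 highest and 10 lowest summed ratios with at least 5 ISs and 500 reads, of which 1 gene is not reported here, nor is the sequence of the highest IS, named windows the 5 highest and 5 lowest, and from each list the highest and lowest gene. The members and lists were chosen with earlier results of these data known, and the purine classes after the named ISs had been read. The alternatives tried were other thresholds, density filters, a pseudocount, centring, ISs called in both groups, other windows and overlaps, leaving out purine-rich ISs, and other regions, limits and IS sets for the purine share. Those on purines were chosen after seeing the data. The X chromosome, with 2623 ISs, was kept apart.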

Additional observations from a re-analysis of the deposited data

How the results depend on the processing

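No paired analysis was possible because the deposited table pools the 2 replicates of each group, and for the same reason no fit was run without a replicate. With no replicates, a value counted as moved when it left the interval of its main setting. For shares and medians that interval was taken over ISs, gaps, genes or windows, and for single genes and ISs from the counting SE. A count of genes moved when it differed by more than 1.5-fold. The greater share of higher ISs among purine-rich ISs than among all ISs, and the medians of opposite sign in GC-poor and GC-rich surroundings, kept their direction under the alternatives run for them. Of 167 recomputed values 67 moved and 1 turned. Depth limits single ISs most, with a median counting SE of 0.17.

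The share of ISs higher in shMcm6 was 4.82%. It was 0.971% at a 2-fold threshold, 14.4% at a log2 threshold of 0.32, 3.0% without ISs under the lower quartile of density, 2.96% on the log2(RPM + 1) scale, 5.0% after centring on the autosomal median, 1.31% for ISs called in both groups and 3.40% without purine-rich ISs. The share lower was 1.49%, and 0.0534%, 11.5%, 0.906%, 0.556%, 1.40% and 0.753% under the first 6 of these in that order.

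The share of promoter ISs lower was 3.31% with a window of 2 kb and 4.91% with 500 bp. Without the lowest quartile of density, promoter ISs were lower in 3.35% and higher in 2.75%, intergenic ISs higher in 3.23% and intronic ISs in 2.70%. Among ISs called in both groups these 4 values were 2.68%, 1.02%, 1.42% and 1.18%.

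ISs of at least 60% GC were lower in 8.14% and higher in 5.83%, and ISs under 40% GC in 0.311% and 4.08%. With GC read over the central 300 bases the 4 values were 5.23%, 10.04%, 0.438% and 3.72%. Among ISs called in both groups they were 5.99%, 2.56%, 0.0610% and 0.774%. Without the lowest quartile of density the share higher was 4.46% from 60% GC on, and under 40% GC 0.0803% were lower and 2.03% higher. The median log2 difference in surroundings under 37% GC was 0.091 without the lowest quartile, 0.065 for ISs called in both groups and 0.095 without purine-rich ISs, and from 50% GC on -0.108, -0.126 and -0.108.

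A central G-quadruplex motif went with 8.63% higher, against 3.79% without it. The whole IS gave 4.05% and 7.46%, the opposite order, and ISs called in both groups 3.58% and 0.773%. For tandem repeats (10.1% and 3.16%) these were 7.11% and 2.90%, then 2.94% and 0.848%. Purine-rich ISs (31.5%) were higher in 43.7% with purines read over the whole IS, 15.9% among ISs called in both groups, and 22.8% and 38.8% with limits of 70% and 80% purines.

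The median log2 ratio over genes was -0.035, and -0.015 with at least 10 ISs per gene, -0.056 with ISs called in both groups and -0.053 without purine-rich ISs. The number of genes past 1.5-fold went from 1 to 0 under each of these 3. Sema3d, with 7 ISs, has fewer than 10, and stood at 0.16 without its purine-rich IS. Windows under 38% GC stood 0.20 above those of at least 48%, and 0.18 with ISs called in both groups. The median over ISs of axon guidance genes turned from 0.0095 to -0.039 with ISs called in both groups, and that of long fragile-site genes moved from 0.062 to 0.029. The median width difference was 50 bp when overlaps had to cover at least 50% of both ISs, and gaps between IS centres were 8683 bp in shLacZ and 7747 bp in shMcm6.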

Other observations

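The X chromosome, which was left out above, held 2623 ISs, of which 97 were higher in shMcm6 past 1.5-fold (3.7%) and 59 lower (2.25%), with a median log2 difference of -0.04. Its 87 purine-rich ISs showed the order seen on the autosomes. Of them 32 were higher (36.8%, 95% Wilson interval 27.4 to 47.3) and 0 lower, which allows a share of up to 3.45% (3 counts of the total), while 2.56% of the 2536 others were higher and 2.33% lower. These ISs come from the same 2 pooled values as the autosomal ones and are no separate replicate.

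Repeats of AACCCT, the unit of vertebrate telomeres, were present in the centre of 25 autosomal ISs, of which 5 were higher (20%, Wilson interval 8.86 to 39.1) and 0 lower, with a median difference of 0.31. Over all ISs 4.82% were higher, and over those with any tandem repeat in the centre 10.1%, which lies inside that interval.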
